A study of Mus musculus with 8 samples.

Results

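The AP-1 and immediate early genes described here are *Fos*, *Fosb*, *Fosl1*, *Fosl2*, *Jun*, *Junb*, *Jund*, *Atf3*, *Egr1* and *Ier2*, which are 10 of the 56923 genes counted. They were chosen by name, with earlier results of these data known, and each symbol matched a single Ensembl gene in every library. Their transcripts were counted in wild-type mouse thymic epithelial cells (TECs) from E16.5 embryos of the C57BL/6J strain, in 4 groups of 2 libraries each, with no treatment listed for any group. *In vivo* TECs were freed from the thymus by enzymatic digestion, sorted as EpCAM-positive cells into medium with serum and the kinase inhibitor thiazovivin, and lysed straight after the sort. 2D-cultured TECs were sorted the same way, grown for 3 days on laminin-coated plates in the same medium as the organoids (organoid basal medium with FGF7) and lysed on the plate. Organoids grew from sorted TECs in Matrigel, with thiazovivin in the medium at the start, and were lysed at day 3 (D3) or day 7 (D7), after the gel had been dissolved in cold PBS. Whether the 2D cultures also had thiazovivin at the start is not stated for them separately. The labels call the libraries of a group biological replicates without saying whether embryos were pooled. Only the *in vivo* cells met digestion and sorting just before lysis, so handling and growth condition cannot be told apart in any comparison with that group.

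AP-1 is a transcription factor built from pairs of basic leucine zipper proteins, in which a Fos-family protein binds a Jun-family protein and Jun proteins can also pair with each other. Immediate early genes are those that cells switch on within minutes of a growth factor, a stress or a change of attachment, without making new protein first, and many of them encode transcription factors of this kind. In epithelia, AP-1 is known for its part in proliferation, migration, wound repair and the response to stress, and its members are also well known to rise when tissue is taken apart into single cells.

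Reads came from the 3′ end of transcripts (QuantSeq), so each transcript gave about the same number of reads whatever its length, and levels of different genes were compared as counts scaled to a common library size (CPM) without dividing by length. The libraries held between 5084715 and 7612532 counts, and between 16748 and 19943 genes had a count. CPM values were scaled by TMM factors, which correct for differences in composition and lay between 0.880 and 1.09. The TEC markers *Epcam*, *Krt8*, *Krt18*, *Cdh1* and *Foxn1* summed to between 2906 and 3196 CPM *in vivo*, 6232 and 6938 in 2D, 1424 and 1495 in D3 organoids and 1576 and 1660 in D7 organoids. *Krt18* was the largest part of the *in vivo* and 2D sums. Its means were 1747 CPM *in vivo*, 3377 in 2D, 259 in D3 organoids and 490 in D7 organoids. *Krt8* was also at lower values in organoids, with 420 CPM *in vivo*, 95.3 at D3 and 74.4 at D7. *Epcam*, at 198, 582 and 442 CPM in that order, was higher in organoids. *Cdh1*, at 437, 514 and 539 CPM, did not pass the test between *in vivo* and organoids. *Foxn1*, the master regulator of TECs, was at 224 and 274 CPM *in vivo*, 8.55 and 4.83 in 2D, 8.79 and 9.65 in D3 organoids and 60.7 and 85.2 in D7 organoids. The 10 thymocyte markers summed to 684 and 304 CPM in the *in vivo* libraries and to between 2.36 and 9.29 CPM in the cultures. Counts of RNA cannot tell fewer cells of a type from less RNA per cell.

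Letters before the start sites of these genes were read from the GRCm39 genome, because several members are textbook targets of the same signalling routes. The search covered TGANTCA, the cyclic AMP response element (CRE) TGACGTCA and the CArG box bound by serum response factor, on both strands. TGANTCA, called the AP-1-like site here, takes any base at N and is wider than the AP-1 consensus TGASTCA, where S is C or G. In the 250 bases before the start site, a CRE was found in *Jund* and *Ier2*, and 1.69% of 21631 promoters held one. An AP-1-like site was found in 0 of the 10 members against 6.19% of promoters, and a CArG box in 0 of the 10 against 1.41%. With a window of 500 bases, chosen after the first search, *Fos* and *Fosb* held a CArG box (2.78% of promoters) and *Fos* an AP-1-like site (12.4% of promoters). The site in *Fos* reads TGAATCA, which is not the AP-1 consensus. The CRE share was then 1.95%, with the same 2 members. No match overlapped another. The stretches that hold these matches are shown because *Fos* and *Fosb* had the largest fitted fold changes of *in vivo* over cultured TECs, while *Jund* and *Ier2* share the CRE and only *Ier2* of the pair passed the test of *in vivo* over 2D. They lie at chr12:85520182-85520384 on the plus strand (*Fos*), chr7:19044213-19044262 on the minus strand (*Fosb*), chr8:71151365-71151412 on the plus strand (*Jund*) and chr8:85389499-85389546 on the minus strand (*Ier2*), upstream of the first exon in each case. Capitals mark the matches, which are the AP-1-like site and then the CArG box in *Fos*, the CArG box in *Fosb*, and the CRE in *Jund* and *Ier2*.
Fos: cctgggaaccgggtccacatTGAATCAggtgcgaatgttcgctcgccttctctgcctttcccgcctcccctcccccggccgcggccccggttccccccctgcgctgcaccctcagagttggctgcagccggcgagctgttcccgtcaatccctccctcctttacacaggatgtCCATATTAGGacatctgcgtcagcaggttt
Fosb: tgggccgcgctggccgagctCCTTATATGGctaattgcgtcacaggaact
Jund: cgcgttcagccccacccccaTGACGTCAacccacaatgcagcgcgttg
Ier2: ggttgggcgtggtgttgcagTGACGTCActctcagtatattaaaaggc
The CArG box began at position -303 from the annotated start of *Fos* and -266 from that of *Fosb*, and the CRE at -214 in *Jund* and at -43 in *Ier2*. A match describes the letters only and says nothing of binding, and the lack of one says only that these letters are not in the window.

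**Figure D1:**
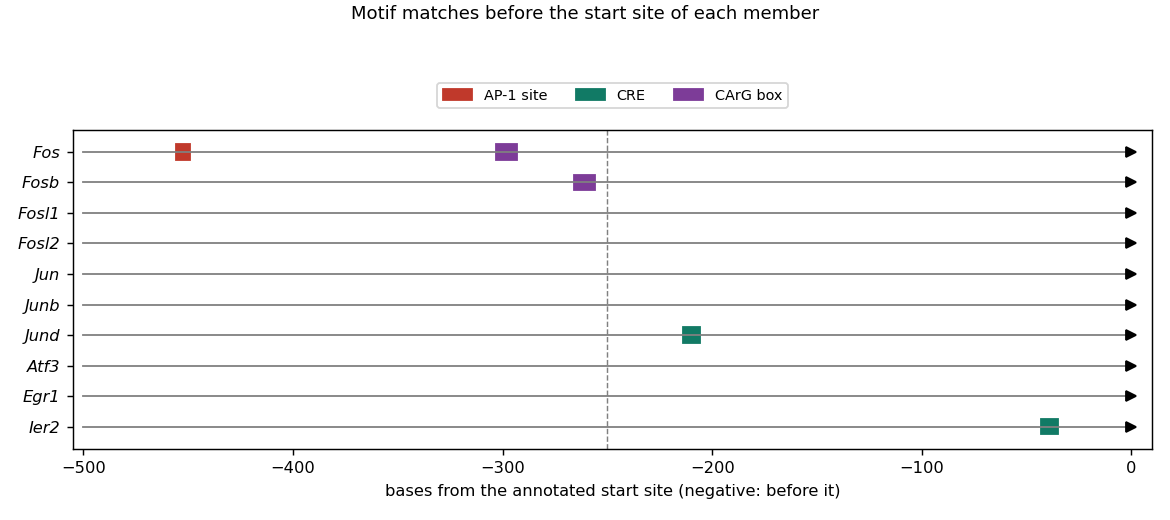
Matches to TGANTCA (marked AP-1 site), the CRE and the CArG box in the 500 bases before the start site of each of the 10 members, with the distance from the start site on the x axis, 1 gene per line and a dashed line at 250 bases. Only *Fos*, *Fosb*, *Jund* and *Ier2* held a match, and the CArG boxes of *Fos* and *Fosb* both lay just outside the 250-base window.

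The comparison of *in vivo* with 2D-cultured TECs separated the members. *Fos*, *Fosb*, *Jun*, *Junb*, *Egr1* and *Ier2* were higher *in vivo*, *Fosl2* was higher in 2D, and *Fosl1*, *Jund* and *Atf3* did not pass the test. Thus 6 of the 10 members were called higher *in vivo* and 1 lower, where 21.7% of the 14504 genes tested were called higher and 19.9% lower at an adjusted p of at most 0.05 (edgeR's quasi-likelihood test, Benjamini-Hochberg adjustment). The median log2 fold change was 1.95 over the members and 0.06 over all genes tested. Against D3 organoids, 8 of the 10 members were higher *in vivo* and 0 lower, where 14.0% of genes were called higher and 14.1% lower. Against D7 organoids the counts were again 8 and 0, where 16.8% of genes were called higher and 18.0% lower. *Fosl1* and *Fosl2* were the members that did not pass in either organoid comparison. The *in vivo* libraries are shared by all 3 of these comparisons, which are therefore not independent of each other. Because the members were chosen with earlier results of these data known, their shares and medians describe the set and do not test it.

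**Figure D2:**
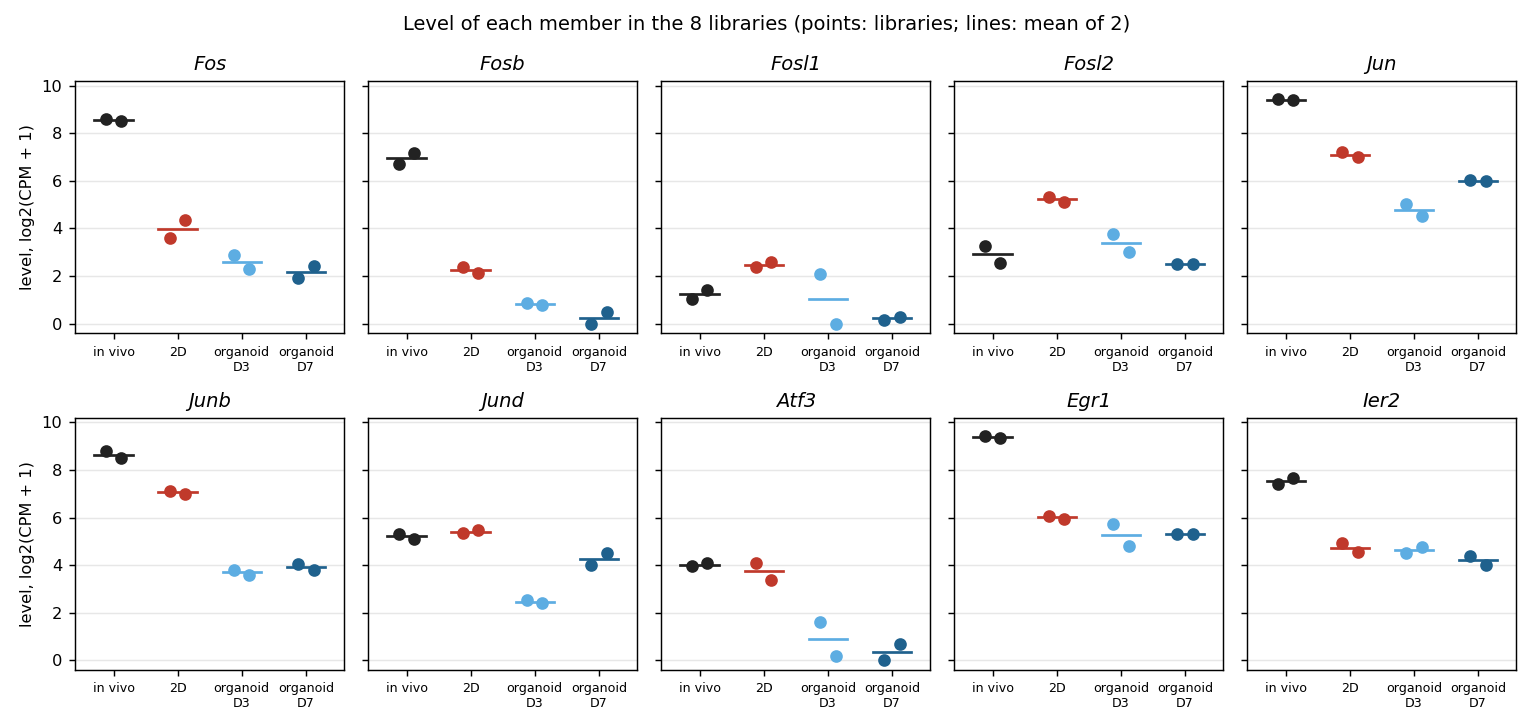
Level of each member as log2(CPM + 1) in each of the 8 libraries, by group, with points for libraries and lines for the mean of the 2. *Fos*, *Fosb*, *Jun*, *Junb*, *Egr1* and *Ier2* lie highest in the *in vivo* libraries without overlap, whereas *Fosl2* and *Fosl1* lie highest in 2D.

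*Fos*, the inducible founder of the Fos family, was at 385 and 366 CPM in the *in vivo* libraries, 11.1 and 19.5 in 2D, 6.42 and 3.91 in D3 organoids and 2.73 and 4.35 in D7 organoids. Every *in vivo* value lay far above every cultured one. *Fos* was higher *in vivo* than in 2D by a log2 fold change of 4.62 ± 0.26 (SE, adjusted p = 2.2e-10), than in D3 organoids by 6.20 ± 0.29 (adjusted p = 5.6e-11) and than in D7 organoids by 6.78 ± 0.30 (adjusted p = 4.8e-11). By level, *Fos* stood above 98.3% of the genes tested *in vivo*, above 50.2% in 2D and above 22.2% in D7 organoids.

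*Fosb*, a second inducible Fos-family member, was at 105 and 142 CPM *in vivo*, 4.18 and 3.34 in 2D, and 0.845 and 0.699 in D3 organoids. In the D7 organoids it had 0 counts in replicate 1, which allows up to 0.372 CPM (3 counts), and 2 counts in replicate 2 (0.395 CPM). The groups did not overlap, and the *in vivo* values were again the high ones. The log2 fold change of *in vivo* over 2D was 5.03 ± 0.31 (SE, adjusted p = 8.4e-10) and that over D3 organoids was 7.30 ± 0.38 (adjusted p = 2.3e-10). Over D7 organoids, the fitted difference ranked 2 of the 14504 genes tested. With 1608 counts against 2, the ratio of *in vivo* to D7 organoids was 822, with a 95% interval of 227 to 6791 that covers counting error only.

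*Jun*, the core partner of the Fos proteins, had the highest mean level of the members *in vivo*, at 686 and 666 CPM. It was at 148 and 126 CPM in 2D, 31.4 and 21.9 in D3 organoids and 63.9 and 62.1 in D7 organoids. No groups overlapped, and even the lowest group, the D3 organoids, kept a level above 62.3% of genes. *In vivo* over 2D the log2 fold change was 2.30 ± 0.17 (SE, adjusted p = 9.6e-09), over D3 organoids 4.67 ± 0.20 (adjusted p = 1.6e-11) and over D7 organoids 3.42 ± 0.18 (adjusted p = 3.8e-10). *Junos*, the gene antisense to *Jun*, overlaps it on the other strand but had only between 1 and 10 counts per library.

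*Junb*, a Jun-family protein that can restrain *Jun*, was at 443 and 363 CPM *in vivo*, 139 and 126 in 2D, 13 and 11 in D3 organoids and 15.6 and 12.7 in D7 organoids. The *in vivo* and 2D values stood apart from each other and from the organoids, whereas the D3 and D7 organoids overlapped. *In vivo* over 2D the log2 fold change of *Junb* was 1.60 ± 0.17 (SE, adjusted p = 6.0e-07), the smallest among the 6 members higher *in vivo*. Over D3 and D7 organoids it was 5.07 ± 0.20 (adjusted p = 1.1e-11) and 4.82 ± 0.20 (adjusted p = 2.3e-11). *Junb* overlaps the other strand of *Prdx2*, a peroxiredoxin gene with 1708 to 2938 counts per library. *Prdx2* was at 297 and 331 CPM *in vivo*, 426 and 404 in 2D, 289 and 351 in D3 organoids and 364 and 362 in D7 organoids. Whether the counting used strand is not given in the sources used here, so a share of the counts of *Junb* may belong to that neighbour.

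*Egr1*, a zinc finger transcription factor induced with *Fos* by serum and growth factors, was at 681 and 648 CPM *in vivo*, 66.0 and 60.9 in 2D, 52.6 and 27.0 in D3 organoids and 39.1 and 38.6 in D7 organoids. The *in vivo* libraries were high and all cultures were low, with the D3 libraries on either side of the D7 ones. The log2 fold change of *in vivo* over 2D was 3.39 ± 0.23 (SE, adjusted p = 2.7e-09), over D3 organoids 4.07 ± 0.24 (adjusted p = 8.8e-10) and over D7 organoids 4.10 ± 0.24 (adjusted p = 9.7e-10).

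*Ier2*, an immediate early gene that encodes a nuclear protein, was at 168 and 203 CPM *in vivo*, 29.3 and 22.3 in 2D, 22.1 and 26.1 in D3 organoids and 20.1 and 15 in D7 organoids. Its 6 cultured libraries lay close together, below both *in vivo* ones. The log2 fold change was 2.85 ± 0.21 over 2D (SE, adjusted p = 9.3e-09), 2.94 ± 0.21 over D3 organoids (adjusted p = 1.3e-08) and 3.38 ± 0.22 over D7 organoids (adjusted p = 3.7e-09).

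*Fosl2*, which encodes the Fos-related antigen Fra-2, was lower *in vivo* than in 2D. It was at 8.70 and 4.80 CPM *in vivo*, 39.5 and 33.4 in 2D, 12.5 and 7.13 in D3 organoids and 4.71 and 4.75 in D7 organoids. The 2D libraries were above all the others, and the *in vivo* libraries overlapped the D3 ones. *In vivo* over 2D the log2 fold change was -2.45 ± 0.35 (SE, adjusted p = 2.1e-05). The differences of *in vivo* from D3 organoids (-0.55 ± 0.36, adjusted p = 0.290) and from D7 organoids (0.50 ± 0.38, adjusted p = 0.348) did not pass the test.

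*Fosl1*, which encodes Fra-1, was the rarest Fos-family member *in vivo*. It was at 1.04 and 1.69 CPM *in vivo*, 4.18 and 5.01 in 2D, and 0.124 and 0.198 in D7 organoids (1 count in each library). The D3 organoids disagreed, with 3.21 CPM from 19 counts in replicate 1 and 0 counts in replicate 2, which allows up to 0.419 CPM. The 2D libraries were above all the others, but with 50 counts in total for 2D and 18 *in vivo* the log2 fold change of *in vivo* over 2D was -1.72 ± 1.10 (SE, adjusted p = 0.229). The ratio of 2D to D7 organoids was 30.1 (95% interval 7.92 to 256, counting error only), and *Fosl1* was called lower in D7 organoids (adjusted p = 0.0124). That call was lost when either D7 library was left out (adjusted p = 0.0958 without replicate 1 and 0.0646 without replicate 2). The SE of 1.10 comes from the shared fit, which includes the D3 libraries with 19 and 0 counts. It was 0.77 without D3 replicate 2 (adjusted p = 0.0802) and 0.76 with only the 4 *in vivo* and 2D libraries fitted (adjusted p = 0.0900). The difference of *Fosl1* between *in vivo* and 2D-cultured TECs did not pass the test under any of the alternatives run. *Fosl1* also overlaps *Ccdc85b* on the other strand, a gene with 5 and 27 counts in D3 replicates 1 and 2 and 9 to 22 in the other libraries. As the strand used in counting is not given, a share of the counts of *Fosl1* may belong to *Ccdc85b*, which was not tested.

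*Jund*, a Jun-family member known for steady expression, was at 38.8 and 33.7 CPM *in vivo*, 40.0 and 43.1 in 2D, 4.73 and 4.33 in D3 organoids and 14.9 and 21.7 in D7 organoids. The 2D and *in vivo* libraries did not overlap but lay close together (log2 fold change of *in vivo* over 2D -0.20 ± 0.23, adjusted p = 0.525), and the organoids were lower. *In vivo* over D3 organoids the log2 fold change was 3.0 ± 0.28 (adjusted p = 2.4e-07) and over D7 organoids 1.0 ± 0.24 (adjusted p = 0.00390). Without D7 replicate 1 the last difference was 0.74 and did not pass (adjusted p = 0.0802). Of the 50-base words at the 3′ end of *Jund* transcripts, 18% also occur in *Gm75675*, which is not among the genes of these files.

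*Atf3*, a stress-induced member of the ATF family that pairs with Jun proteins, was at 14.6 and 15.8 CPM *in vivo* and 16.2 and 9.47 in 2D, so these groups overlapped (log2 fold change of *in vivo* over 2D 0.25 ± 0.55, adjusted p = 0.755). In the D3 organoids it was at 2.03 and 0.140 CPM (12 counts and 1 count), and in the D7 organoids it had 0 counts in replicate 1, which allows up to 0.372 CPM, and 3 counts in replicate 2 (0.593 CPM). All organoid values were below all *in vivo* and 2D values. *In vivo* over D3 organoids the log2 fold change of *Atf3* was 3.87 ± 0.70 (SE, adjusted p = 4.5e-04). The ratio of *in vivo* to D7 organoids was 66.8 (95% interval 22.5 to 327, counting error only), and *Atf3* passed the test there too (adjusted p = 5.7e-05).

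**Figure D3:**
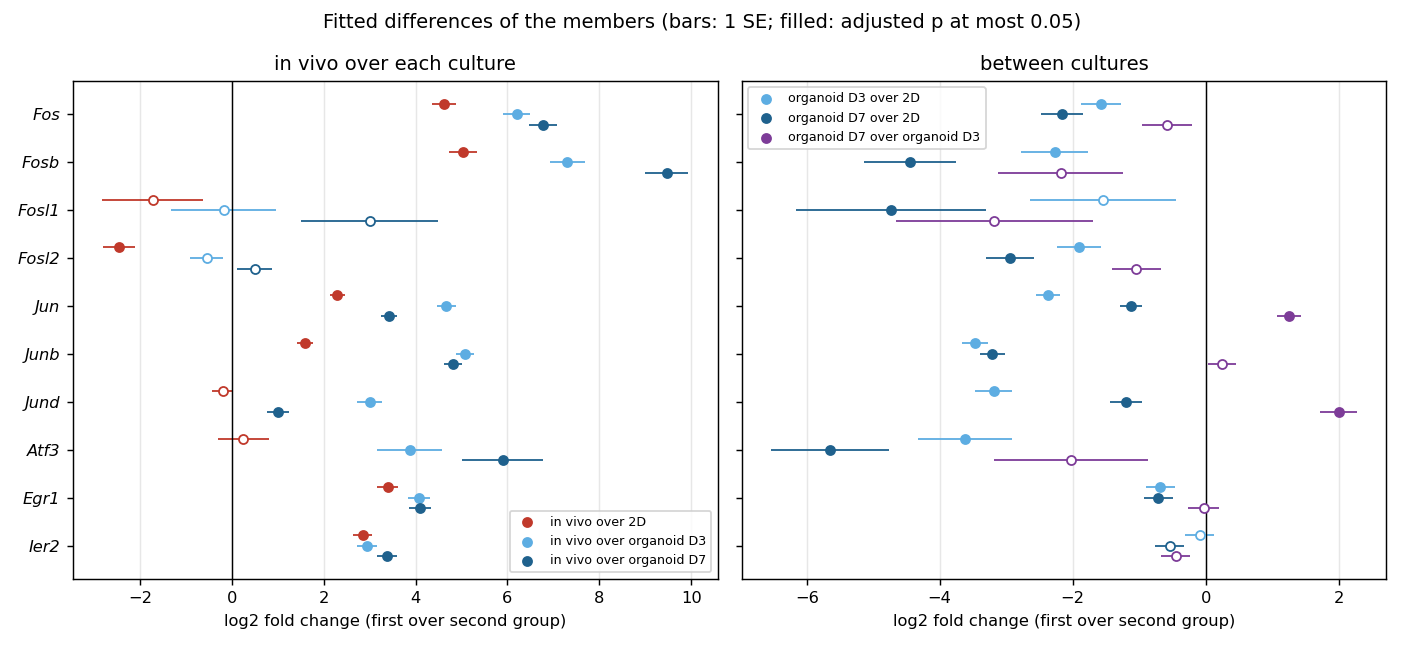
Log2 fold changes of the members, with *in vivo* over each culture on the left and the comparisons between cultures on the right; bars are 1 SE and filled points have an adjusted p of at most 0.05. *Fosl2* is the only filled point left of 0 on the left side, and *Jun* and *Jund*, in D7 over D3 organoids, are the only filled points right of 0 on the right side.

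Between the cultures, the members were lower in organoids than in 2D. In D3 organoids over 2D, 0 of the 10 members were called higher and 8 lower, where 19.3% of all genes were called higher and 19.1% lower. The median log2 fold change was -2.08 over the members and 0.03 over all genes. The differences ran from -3.62 ± 0.71 for *Atf3* (adjusted p = 6.0e-04), -3.47 ± 0.20 for *Junb* (adjusted p = 5.2e-10) and -3.19 ± 0.28 for *Jund* (adjusted p = 8.2e-08) to -0.68 ± 0.22 for *Egr1* (adjusted p = 0.0231). *Jun* (-2.37 ± 0.18), *Fosb* (-2.27 ± 0.50), *Fosl2* (-1.90 ± 0.33) and *Fos* (-1.58 ± 0.30) lay in between. *Ier2* (-0.09 ± 0.22, adjusted p = 0.773) and *Fosl1* (-1.54 ± 1.10, adjusted p = 0.287) did not pass. *Egr1* lost its call without D3 replicate 2 (-0.25, adjusted p = 0.311), without 2D replicate 1 (-0.62, adjusted p = 0.123), without 2D replicate 2 (-0.74, adjusted p = 0.0668) and under scaling by library size alone (-0.43, adjusted p = 0.137).

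In D7 organoids over 2D, 0 of the 10 members were higher and 9 lower, where 24.4% of all genes were called higher and 21.1% lower, with a median of -2.55 over the members and 0.10 over all genes. *Fosl2* was lower by -2.94 ± 0.36 on the log2 scale (adjusted p = 4.3e-06), *Junb* by -3.21 ± 0.19 (adjusted p = 7.2e-10) and *Fos* by -2.16 ± 0.32 (adjusted p = 3.8e-05). *Jun* (-1.12 ± 0.17, adjusted p = 5.1e-05), *Jund* (-1.20 ± 0.24, adjusted p = 6.5e-04) and *Egr1* (-0.71 ± 0.22, adjusted p = 0.0164) had smaller differences. *Egr1* lost its call here without 2D replicate 1 (adjusted p = 0.0977), without D7 replicate 1 (0.0594), without D7 replicate 2 (0.0608) and under scaling by library size alone (0.0744). For the rarest transcripts, the ratio of 2D to D7 organoids was 24.7 for *Fosb* (95% interval 6.42 to 211) and 56.2 for *Atf3* (95% interval 18.9 to 276), from counting error only. *Ier2* just missed the threshold (-0.54 ± 0.22, adjusted p = 0.0576). The 2D libraries enter both of these comparisons.

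Between D3 and D7 organoids, *Jun* and *Jund* were higher at D7. *Jun* differed by a log2 fold change of 1.25 ± 0.18 (SE, adjusted p = 2.0e-04) and *Jund* by 2.00 ± 0.28 (adjusted p = 1.4e-04). These were the 2 members called higher, with 0 called lower, where 10.9% of all genes were called higher and 9.91% lower. The third Jun-family gene, *Junb*, differed by 0.25 ± 0.21 (adjusted p = 0.440). *Fosl2* was at lower values at D7 without passing (-1.04 ± 0.37, adjusted p = 0.0571), and *Fos*, *Fosb*, *Fosl1*, *Atf3*, *Egr1* and *Ier2* did not pass either, with adjusted p values from 0.113 to 0.954.

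The mix of Fos-family transcripts differed between *in vivo* and cultured TECs. *In vivo*, *Fos* held 74.1% ± 4.13 (SD, n = 2) and *Fosb* 24.3% of the family's counts, with 1.34% for *Fosl2* and 0.269% for *Fosl1*. In 2D, *Fosl2* held 60.8% ± 8.79 (SD, n = 2), *Fos* 25.3%, *Fosl1* 7.64% and *Fosb* 6.28%. *Fosl2* was also the largest part in D3 organoids (57.6%) and in D7 organoids (55.6% ± 9.42, SD, with 40.5% for *Fos*). The D7 shares rest on 61 and 49 family counts. In D7 replicate 2, *Fosl2* had 24 counts and *Fos* 22 (49.0% and 44.9%), so its lead there was small. Summed over the family, the level was 507 ± 9.81 CPM *in vivo*, 60.1 ± 1.65 in 2D, 17.4 ± 7.95 in D3 organoids and 8.63 ± 1.5 in D7 organoids (SD, n = 2 each). *Fosl2* thus held the largest average share of the family in D7 organoids, although its own mean level there was the lowest of the 4 groups.

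The Jun family kept *Jun* as its largest part in all 4 groups. *Jun* held 60.7% *in vivo*, 44.0% in 2D, 61.4% in D3 organoids and 66.0% in D7 organoids, and *Junb* held 36.1%, 42.6%, 28.0% and 14.8% in the same order. *Jund*, at 3.25% of the family *in vivo*, held 13.4% in 2D, 10.6% in D3 organoids and 19.2% in D7 organoids. The summed level was 1115 ± 74.5 CPM *in vivo*, 312 ± 22.5 in 2D, 43.3 ± 8.38 in D3 organoids and 95.4 ± 1.47 in D7 organoids (SD, n = 2 each). Fos-family counts per Jun-family count were 0.428 and 0.484 *in vivo*, 0.180 and 0.207 in 2D, 0.467 and 0.315 in D3 organoids and 0.0802 and 0.10 in D7 organoids. The D7 organoids therefore had the fewest Fos-family transcripts for their Jun-family transcripts, and the 2D libraries also lay below the *in vivo* and D3 ones. These shares and ratios were not tested.

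**Figure D4:**
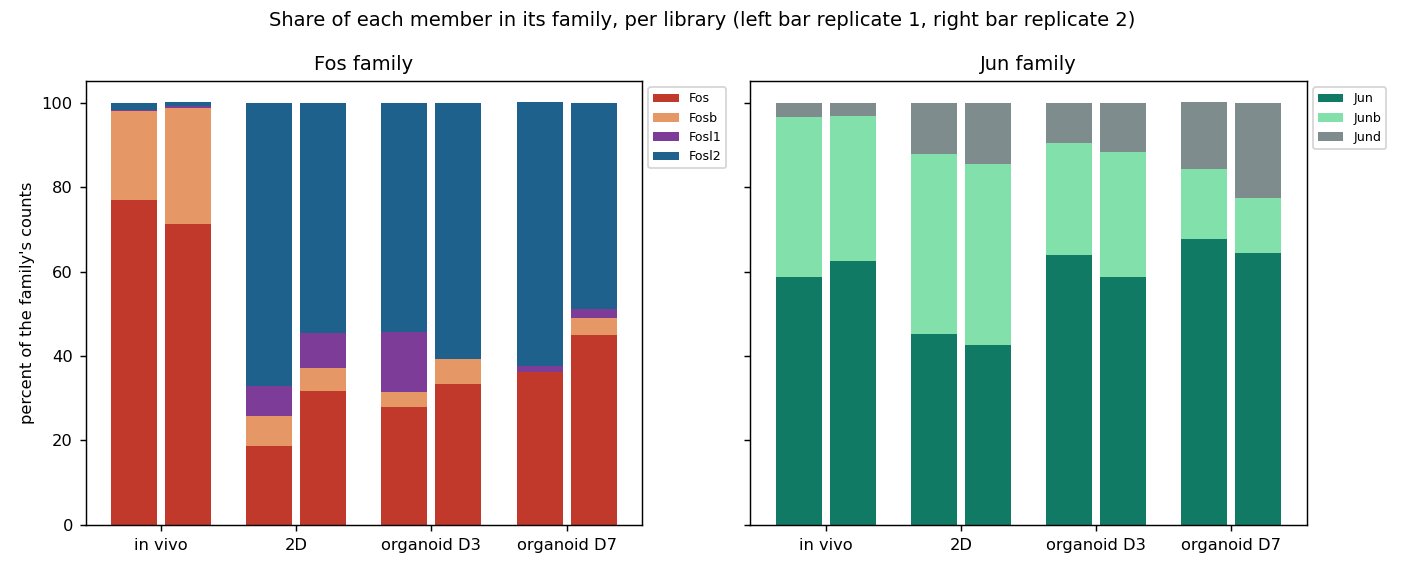
Percent of the Fos-family counts (left) and of the Jun-family counts (right) that each member held in each of the 8 libraries, with replicate 1 on the left and replicate 2 on the right of each pair of bars. *Fos* and *Fosb* fill nearly all of the *in vivo* Fos-family bars, and *Fosl2* is the largest part of every cultured one, at 55.6% or more on average in each group. In D7 replicate 2 its lead over *Fos* was small (49.0% and 44.9%).

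Ordered by mean level, *Fos*, *Fosb*, *Atf3*, *Egr1* and *Ier2* ran from *in vivo* through 2D and D3 organoids to D7 organoids, except that *Ier2* had D3 organoids above 2D under scaling by library size alone. Neighbours in that order that did not differ by the test were the D3 and D7 organoids for all 5 genes, *in vivo* and 2D for *Atf3*, and 2D and D3 organoids for *Ier2*. *Jun* and *Junb* ran from *in vivo* through 2D and D7 organoids to D3 organoids, and *Jun* was the only member for which all 3 steps passed. *Jund* had 2D at the top, not distinct from *in vivo*, followed by D7 and D3 organoids. *Fosl1* and *Fosl2* ran from 2D through D3 organoids and *in vivo* TECs to D7 organoids, where only the step from 2D to D3 organoids of *Fosl2* passed (adjusted p = 2.2e-04).

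Thymocyte RNA moved with the *in vivo* group. Of its 10 markers, 9 had a count in *in vivo* replicate 1 (*Cd4* was at 0) and all 10 in replicate 2, while between 3 and 8 had a count in the cultured libraries, where *Ptcra*, a defining gene of immature thymocytes, was at 0 throughout. Of the members, *Fos*, *Fosl2*, *Jun*, *Junb*, *Jund* and *Egr1* were, like the marker sum, at the higher value in *in vivo* replicate 1, and *Fosb*, *Fosl1*, *Atf3* and *Ier2* in replicate 2. The part of thymocyte RNA in the levels of the members was not tested. Both *in vivo* libraries held thymocyte RNA, so leaving either of them out cannot separate it from the levels of the members. Erythroid markers summed to 12 CPM or less, endothelial markers to 5.22 CPM or less and myeloid markers to 12.5 CPM or less in every library. Mesenchymal markers summed to between 22.2 and 81.3 CPM, highest in D7 organoids. *Dcn* was the largest part of the D7 sum, at a mean of 52.3 CPM. *Pdgfrb* (0.124 CPM at D7 and 6.21 *in vivo*), *Col1a1* (1.34 and 6.22) and *Col3a1* (3.22 and 4.56) were at lower means at D7 than *in vivo*.

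Other immediate early genes were split in the comparison with 2D and mostly higher *in vivo* in the comparisons with organoids. Of 26 listed, 22 were tested, and *in vivo* over 2D 7 were higher and 8 lower (31.8% and 36.4%, beside 21.7% and 19.9% of all genes), with a median log2 fold change of 0.16. Over D3 organoids 15 were higher and 2 lower, and over D7 organoids 15 were higher and 0 lower, with medians of 2.07 and 2.11, so 68.2% were higher in each, beside 14.0% and 16.8% of all genes. *Zfp36*, which destabilizes short-lived mRNAs, was at a mean of 105 CPM *in vivo* and 3.39 in 2D (log2 fold change 4.94 ± 0.30, adjusted p = 5.8e-10), and *Nr4a1*, an orphan nuclear receptor, at 58.2 and 2.84 (4.34 ± 0.38, adjusted p = 7.4e-08). *Dusp1*, a phosphatase that switches MAP kinases off, was at 68.7 and 21.4 CPM (1.68 ± 0.32, adjusted p = 4.8e-04). On the other side, *Klf10*, a zinc finger gene induced by TGFβ, was at 5.68 CPM *in vivo* and 119 in 2D (-4.40 ± 0.27, adjusted p = 6.3e-10), and *Ccn1*, a secreted matrix protein, at 7.28 and 88.0 (-3.59 ± 0.30, adjusted p = 3.1e-08). *Ccn1* was higher *in vivo* than in D7 organoids (0.768 CPM, 3.22 ± 0.46, adjusted p = 3.8e-05), which placed it, like *Fosl2*, with its highest level in 2D.

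Genes known as targets of AP-1 were mostly higher in 2D. Of 18 listed, 13 were tested, and *in vivo* over 2D 1 was higher and 10 were lower (7.69% and 76.9%, beside 21.7% and 19.9% of all genes), with a median log2 fold change of -4.19. *Spp1* (osteopontin) was at 0.348 CPM *in vivo* and 90.8 in 2D (-8.09 ± 0.49, adjusted p = 6.8e-10), *Timp1*, an inhibitor of matrix proteases, at 1.90 and 202 (-6.64 ± 0.37, adjusted p = 2.2e-10), *Hbegf*, an EGF receptor ligand, at 5.37 and 220 (-5.31 ± 0.31, adjusted p = 4.6e-10), and *Ccnd1* (cyclin D1) at 17.8 and 596 (-5.07 ± 0.21, adjusted p = 7.9e-12). In D7 organoids over 2D, 1 of the 13 was higher and 11 lower (7.69% and 84.6%, beside 24.4% and 21.1% of all genes). In D3 organoids over 2D, 0 were higher and 10 lower (0% and 76.9%, beside 19.3% and 19.1% of all genes). *Spp1* was an exception at D3, at 108 CPM (0.25 ± 0.26 over 2D, adjusted p = 0.488). *In vivo* over D7 organoids, 3 were higher and 4 lower (23.1% and 30.8%, beside 16.8% and 18.0% of all genes, median -0.41). Over D3 organoids 3 were higher and 5 lower (23.1% and 38.5%, beside 14.0% and 14.1% of all genes, median -0.79).

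**Figure D5:**
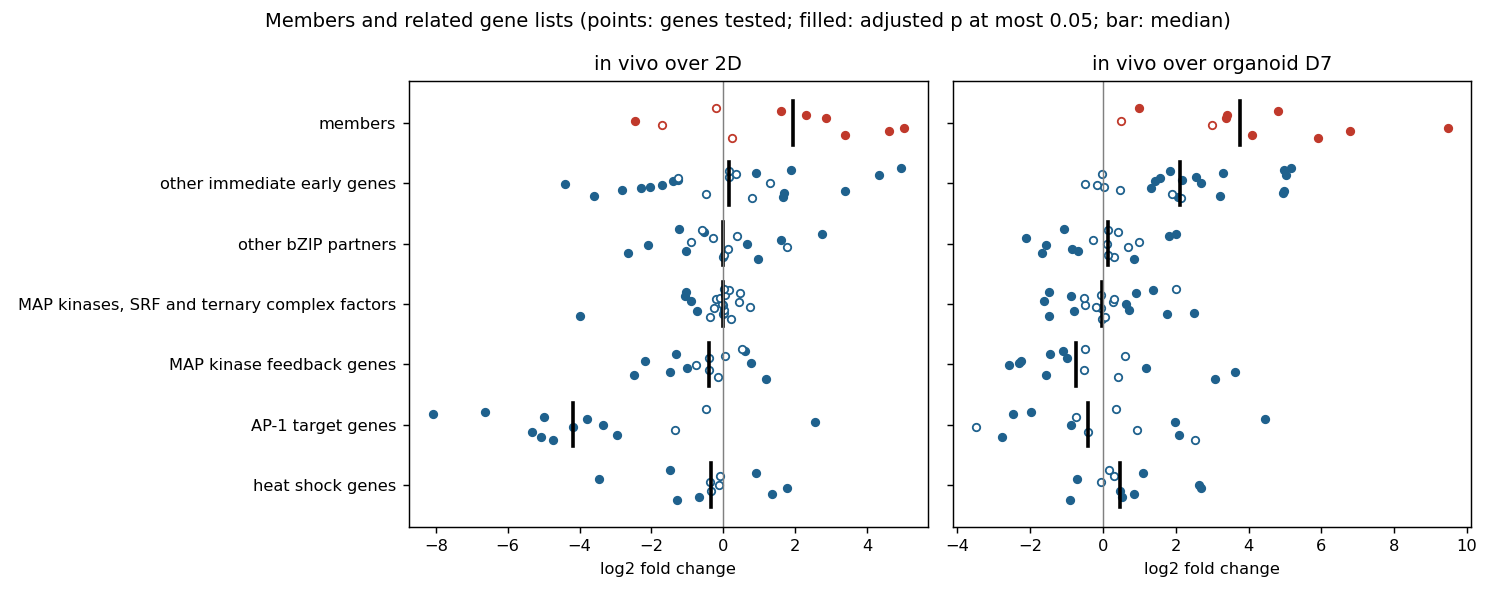
Log2 fold changes of the members and of 6 lists of related genes, *in vivo* over 2D on the left and *in vivo* over D7 organoids on the right; each point is a gene tested, filled points have an adjusted p of at most 0.05 and the black bar is the median. The AP-1 target genes lie left of 0 against 2D (median -4.19) and on both sides of 0 against D7 organoids (median -0.41), while the members lie mostly to the right in both.

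Most signalling genes upstream of AP-1 did not pass the test against 2D. Of 21 MAP kinases, their kinases, SRF and its partners, 0 were higher and 5 lower *in vivo* than in 2D (0% and 23.8%, beside 21.7% and 19.9% of all genes). The median log2 fold change was -0.02. Against D3 organoids 2 were higher and 4 lower *in vivo* (9.52% and 19%, beside 14.0% and 14.1% of all genes). Against D7 organoids 6 were higher and 5 lower (28.6% and 23.8%, beside 16.8% and 18.0% of all genes). *Elk3*, a ternary complex factor that can repress SRF targets, was at 8.26 CPM *in vivo* and 135 in 2D (-4.00 ± 0.24, adjusted p = 5.7e-10). *Mrtfa* (-1.07 ± 0.27), a coactivator of SRF, *Rps6ka1* (-1.03 ± 0.24), a kinase activated by ERK, and *Mapk3* (-0.90 ± 0.21), which encodes ERK1, were also lower *in vivo*, with adjusted p values of 0.00407, 0.00250 and 0.00204. *Srf* itself was at 2.05 CPM *in vivo* and 2.02 in 2D (0.01 ± 0.98, adjusted p = 0.994), a level too low for a firm comparison.

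Of 14 feedback genes of the MAP kinase route, 3 were higher and 5 lower *in vivo* than in 2D (21.4% and 35.7%, beside 21.7% and 19.9% of all genes, median -0.40). Against D3 organoids 3 were higher and 8 lower *in vivo* (21.4% and 57.1%, beside 14.0% and 14.1% of all genes). Against D7 organoids 3 were higher and 7 lower (21.4% and 50%, beside 16.8% and 18.0% of all genes). *Dusp4*, a phosphatase for MAP kinases (2.05 CPM *in vivo*, 11.6 in 2D, -2.49 ± 0.51, adjusted p = 7.4e-04), *Phlda1* (85.7 and 384, -2.17 ± 0.20, adjusted p = 1.5e-07), *Dusp5*, a phosphatase for ERK (28 and 78.6, -1.49 ± 0.29, adjusted p = 5.0e-04), and *Spry1*, an inhibitor of receptor tyrosine kinase signalling (26.0 and 64.9, -1.32 ± 0.25, adjusted p = 3.8e-04), were lower *in vivo*. *Dusp5* was then higher *in vivo* than in D7 organoids (2.12 CPM, 3.63 ± 0.39, adjusted p = 1.5e-06), whereas *Spry1* and *Phlda1* were lower than in either organoid group. In D3 organoids over 2D, 8 of these 14 genes were higher and 5 lower (57.1% and 35.7%, beside 19.3% and 19.1% of all genes). In the same comparison 0 of the 10 members were higher and 8 lower.

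Of the other basic leucine zipper genes that can pair with *Fos* or Jun proteins or their relatives, 17 of 19 were tested. Of these, 4 were higher and 5 lower *in vivo* than in 2D (23.5% and 29.4%, near the 21.7% and 19.9% of all genes, median -0.00). Against D3 organoids 3 were higher and 3 lower *in vivo* (17.6% each, beside 14.0% and 14.1% of all genes). Against D7 organoids 3 were higher and 6 lower (17.6% and 35.3%, beside 16.8% and 18.0% of all genes). *Ddit3* (CHOP), a gene of the stress response of the endoplasmic reticulum, was at 15.9 CPM *in vivo* and 5.24 in 2D (1.60 ± 0.37, adjusted p = 0.00226). *Atf5*, another stress-responsive factor, was at 11.9 and 75.6 CPM (-2.66 ± 0.22, adjusted p = 2.8e-08), and *Cebpb* at 6.79 and 29.8 (-2.11 ± 0.30, adjusted p = 2.4e-05).

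Heat shock genes, another group known to respond when tissue is dissociated, were split against 2D and more often higher *in vivo* against organoids. Of 11 genes, 3 were higher and 4 lower *in vivo* than in 2D (median -0.34). These are 27.3% and 36.4%, beside 21.7% and 19.9% of all genes. Against D3 organoids 5 were higher and 2 lower *in vivo* (45.5% and 18.2%, beside 14.0% and 14.1% of all genes). Against D7 organoids 6 were higher and 2 lower (54.5% and 18.2%, beside 16.8% and 18.0% of all genes). *Hspa1a*, an inducible HSP70 gene, was at 63.8 CPM *in vivo* and 18.8 in 2D (1.76 ± 0.26, adjusted p = 2.9e-05), and its cochaperone gene *Dnajb1* at 111 and 43.7 (1.34 ± 0.20, adjusted p = 3.0e-05). *Hspb1*, a small heat shock protein gene, was at 9.28 and 101 CPM (-3.45 ± 0.24, adjusted p = 3.2e-09), and *Hsph1* at 49.2 and 137 (-1.48 ± 0.19, adjusted p = 5.3e-06). The part of digestion and sorting in the levels of the members was not tested.

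The genes whose log2(CPM + 1) ran most like that of *Fos* over the 8 libraries, among 9017 genes with a mean of at least 10 CPM, were *Pim1* (Pearson's r = 0.995), *Fosb* (0.993), *Ifit1* (0.991), *Ankrd44* (0.987) and *Egr1* (0.985). *Pim1*, a kinase gene, had means of 185 CPM *in vivo*, 34.4 in 2D, 18.9 in D3 organoids and 18.1 in D7 organoids, and *Ifit1*, an interferon-induced gene, had 54.4, 3.04, 1.24 and 0.830. For *Fosl1*, the 5 most alike of 9018 genes were *Rars1*, *Rbm28*, *Ddx46*, *Mafg* and *Stk24*, with r from 0.963 to 0.977. *Rars1*, an aminoacyl-tRNA synthetase gene, had means of 142 CPM in 2D and between 78.5 and 97.5 elsewhere, and *Mafg*, a small *Maf* gene, had 86.7 in 2D and between 44.7 and 59.6 elsewhere. *Fosl1* itself had from 0 to 27 counts per library, so its pattern rests on few counts. Each set of 5 was picked as the highest r of all genes compared, so high values were built in. The 8 points share their groups and libraries, so these values are descriptions.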

How the data were processed

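The authors made QuantSeq 3′ mRNA libraries, ran them on a NextSeq 500 and used STAR for alignment to GRCm39. The deposited values are raw counts of reads per Ensembl gene in each of the 8 libraries, not normalized. The submitters' processing notes name R 4.1.2, edgeR and limma. The annotation release, the strand used in counting and the handling of reads with several matches are not given in the sources used here. IDs were matched to symbols in a GRCm39 annotation, where 56236 of 56923 genes matched.

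CPM values used TMM library sizes. A gene was tested if 3 or more libraries reached 1 CPM (14504 genes, all 10 members among them), and edgeR 4.0.16 (R 4.3.3) fitted 1 quasi-likelihood model to the 8 libraries, with Benjamini-Hochberg adjustment over all genes tested and a threshold of 0.05. Each SE was worked back from the test, as the absolute log2 fold change divided by the square root of the F statistic. An exact permutation test of 2 against 2 libraries cannot go below 0.333 (two-sided), so none was used. Intervals of count ratios are exact binomial 95% intervals and, like the floor of 3 counts, cover counting error only. Tables and figures were made in Python 3.11.15 (pandas 2.3.3, scipy 1.17.1, matplotlib 3.10.9), and promoters were read before the start of each gene's canonical transcript. Alternatives were DESeq2 1.42.0 size factors and Wald test, library size alone, limma-voom (limma 3.58.1, as the authors used), no filter, a mean of 10 CPM, 4 libraries per fit, a replicate block, ribosomal RNA genes left out, a minimum absolute log2 fold change of 1, and each library left out in turn.

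The members and the gene lists were chosen with earlier results of these data known. The rule for naming genes took all members, *Srf* and *Dusp1*, and from each list at most the 4 genes with the largest absolute log2 fold change of *in vivo* over 2D that passed the test with at least 10 CPM in the higher group and no overlap, plus the 5 genes most alike in pattern to *Fos* and to *Fosl1*. A gene that this rule takes is not reported here. P-values measure the spread between libraries of a group, which differed by more than sampling noise (chi-square per degree of freedom 6.82 to 8.70).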

Additional observations from a re-analysis of the deposited data

How the results depend on the processing

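The number of members called was within 1.5 times the reported one under every alternative run, with 1 exception. D7 over D3 organoids had 2 called members and 4 without D3 replicate 2; with each library left out in turn the count ran from 2 to 4 there, was 7 in each case for *in vivo* over 2D and 8 for *in vivo* over D3 organoids, and ran from 7 to 9 for *in vivo* over D7 organoids, 7 to 9 for D3 organoids over 2D and 7 to 10 for D7 organoids over 2D. Scaling by library size alone moved the members' log2 fold changes by a median of 0.18 (*in vivo* over 2D), 0.26 (D3 organoids over 2D) and 0.21 (D7 organoids over 2D). With DESeq2's size factors the median shift over the members was at most 0.04 in size in any comparison.

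Directions that turned belonged to differences that did not pass the test. They were *Fosl1* *in vivo* over D3 organoids (1.78 with limma-voom, 0.11 with the replicate block, 0.12 without *in vivo* replicate 1, and from -1.28 without D3 replicate 2 to 6.14 without D3 replicate 1), *Fosl1* in D7 over D3 organoids (from -4.28 without D3 replicate 2 to 3.13 without D3 replicate 1), *Atf3* *in vivo* over 2D (-0.09 without 2D replicate 2), *Atf3* in D7 over D3 organoids (from -5.74 without D7 replicate 2 to 0.68 without D3 replicate 1), *Egr1* in D7 over D3 organoids (0.07 with limma-voom, 0.02 at a mean of 10 CPM, and from -0.50 without D3 replicate 2 to 0.52 without D3 replicate 1) and *Ier2* in D3 organoids over 2D (0.17 with library size alone, from -0.28 without 2D replicate 2 to 0.12 without 2D replicate 1, and 0.02 without D3 replicate 1). The cause was not tested. *Fosb* in D3 organoids over 2D lost its call with limma-voom (adjusted p = 0.0693), and *Fosl1* in D3 organoids over 2D gained one with limma-voom (-3.47, adjusted p = 0.0228) and without D3 replicate 1 (-7.86, adjusted p = 0.00804). Without D3 replicate 2, *Fosl1* passed *in vivo* over D7 organoids (adjusted p = 0.0427) and in D7 over D3 organoids (adjusted p = 0.0213). *Fosl2* in D7 over D3 organoids passed without D3 replicate 2 or either *in vivo* library (adjusted p = 0.0257 to 0.0329). At a mean of 10 CPM, *Fosl1* and *Atf3* were not tested.

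The labels do not say that a replicate number marks a shared litter or day, and deviations of same-numbered libraries correlated only weakly (r from 0.04 to 0.15 over 6 pairs of groups, 14504 genes). With the number as a replicate block, members called were 7, 8, 8, 8, 10 and 3 in the comparisons of *in vivo* with 2D, D3 and D7 organoids, of D3 and D7 organoids with 2D, and of D7 with D3 organoids. *Ier2* in D7 organoids over 2D (adjusted p = 0.0455) and *Fosl2* in D7 over D3 organoids (adjusted p = 0.0294) passed under the block, as under several other settings, and no other member changed its call. Depth limited *Fosl1*, *Atf3* and *Fosb* in organoids, where whole groups held from 2 to 19 counts.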
